A study of Mus musculus with 56 samples.

Results

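Replicating cells of a mouse colon tumor were taken as the cells with Mcm5, a subunit of the replicative DNA helicase, at 10 TPM or more, where TPM gives a gene's share of all transcripts in a cell on a fixed total. They numbered 16 of 50 cells. Within them, 9 cells had Mki67, a coat protein of mitotic chromosomes, at 10 TPM or more and are called Mki67+ cells. Another 6 had Mki67 below 1 TPM and are called Mki67- cells. The last one, with Mki67 at 1.35 TPM, lay between and entered neither group. The 30 cells with Mcm5 below 10 TPM and Mki67 below 1 TPM serve as the cells outside the cycle, a name for the thresholds only. Another 4 cells had Mcm5 below 10 TPM with Mki67 at 1 TPM or more.

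The cells were sorted from 3 tumors, pooled after digestion, of 1 male ApcMin/+ mouse aged 12 weeks. From 10 weeks of age it had been given 2% dextran sulfate sodium for 5 days, which damages the lining of the colon. The Min allele truncates Apc and activates Wnt signaling. Cells negative for DAPI, Cd31 and Cd45 and positive for Epcam and Cd24 were sorted one per well, and only cDNAs positive for Lgr5, a crypt stem cell gene, in a PCR of 32 cycles were sequenced by Bead-seq, so all groups share the mouse, its allele, the injury, the sort and the selection. The groups were defined from measured Mcm5 and Mki67, every difference between them belongs to the contrast that chose them, and cells of 1 mouse are not replicates, so all values are descriptions without a test.

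In the cell cycle, E2F factors switch on genes for DNA replication as cells leave G1, and helicases loaded at origins by Cdc6 and Cdt1 are fired in S phase. A later set of genes, many of them with a CHR element (cell cycle genes homology region) bound by the DREAM and MuvB complexes, is held off in G1 and comes on toward G2 and mitosis. In the intestinal crypt, Wnt signaling keeps stem and progenitor cells in this cycle, and loss of Apc leaves the signal on.

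The promoters of both sets carry different letters, and 5 of them show the elements. Each stretch runs 5′ to 3′ over the 180 bases before the RefSeq start (mouse build GRCm38.p6). Capitals mark matches on either strand to TTTGGCGC, TTTCCCGC, TTTGCCGC or TTTCGCGC, the spellings searched for E2F, and to TTTGAA, the CHR element. Mcm5 lies at chr8:75109329-75109508 (plus strand), Mcm6 at chr1:128359706-128359885, Cdk1 at chr10:69352913-69353092, Mki67 at chr7:135716380-135716559 and Cdc20 at chr4:118437344-118437523, the last 4 on the minus strand.
Mcm5: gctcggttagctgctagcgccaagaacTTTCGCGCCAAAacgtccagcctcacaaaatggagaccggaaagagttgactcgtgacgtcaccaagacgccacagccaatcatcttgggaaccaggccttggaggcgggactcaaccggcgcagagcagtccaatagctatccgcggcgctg
Mcm6: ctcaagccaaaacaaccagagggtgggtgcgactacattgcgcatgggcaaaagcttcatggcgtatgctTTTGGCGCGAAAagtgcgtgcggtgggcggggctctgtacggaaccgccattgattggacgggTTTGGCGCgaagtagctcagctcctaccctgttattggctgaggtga
Cdk1: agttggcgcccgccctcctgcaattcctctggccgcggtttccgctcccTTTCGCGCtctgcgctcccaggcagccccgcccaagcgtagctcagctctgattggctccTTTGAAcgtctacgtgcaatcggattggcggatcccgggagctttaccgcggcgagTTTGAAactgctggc
Mki67: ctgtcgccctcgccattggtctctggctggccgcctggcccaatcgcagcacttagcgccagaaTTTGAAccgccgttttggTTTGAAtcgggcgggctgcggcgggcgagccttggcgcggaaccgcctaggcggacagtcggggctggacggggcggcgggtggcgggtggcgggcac
Cdc20: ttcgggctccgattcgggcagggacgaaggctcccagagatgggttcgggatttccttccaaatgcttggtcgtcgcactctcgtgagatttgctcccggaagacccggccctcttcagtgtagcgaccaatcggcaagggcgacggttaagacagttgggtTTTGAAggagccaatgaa

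The Mcm5 stretch holds 2 E2F matches that overlap on opposite strands in 1 run of capitals, and that of Mcm6 holds 3, of which 2 overlap in the same way. Cdk1 has 1 E2F match and 2 CHR elements, Mki67 has 2 CHR elements and Cdc20 has 1. Over the RefSeq promoters from 250 bases before to 50 after the start, an E2F spelling was found in 26.6% (21 of 79) of the promoters of the replication and chromatin lists, against 9.91% (11 of 111) in the mitotic lists and 2.89% (613 of 21238) in all promoters. The CHR element was found in 62.2% (69 of 111) of mitotic promoters, 19% (15 of 79) of replication promoters and 15.4% (3275 of 21238) of all. CCAAT boxes, the letters CCAAT on either strand, lay in 69.4%, 55.7% and 38% of them (mitotic, replication and all promoters). A CHR element and a CCAAT box stood together in 48.6% (54 of 111), 7.59% (6 of 79) and 6.24% (1325 of 21238). A match is a description of the letters and not a site of binding. Promoters were found for 102 of 123 mitotic genes and 68 of 79 replication and chromatin genes.

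Mcm5 (chr8:75109569-75128439, plus strand) ran from 20.7 TPM through a median of 51.9 to 181 TPM in the 16 cells. The highest values outside were 9.25, 8.46 and 4.64 TPM, and the other 31 of 34 cells outside the threshold were below 1 TPM, so few cells lay near it. Mki67 (chr7:135689784-135716361, minus strand) was 15.3 to 137 TPM with a median of 57.4 in the Mki67+ cells and at most 0.35 TPM in the Mki67- cells. Both thresholds on Mki67 thus fell in a gap that held 1 replicating cell. Just outside, the cell N708-N517+N709-N507 (cells are named by their index pair, and a plus joins 2 libraries averaged as 1 cell) had Mcm5 at 8.46, Mki67 at 35.5 and Top2a at 49.3 TPM. It would join the Mki67+ cells at a lower Mcm5 threshold.

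Replicating cells carried the markers of the sort. In both groups Epcam was at 208 TPM or more and Cd24a at 291 TPM or more in every cell. Ptprc (Cd45) and Pecam1 (Cd31) were at most 0.02 and 0.005 TPM. The sort selected on these proteins, so their levels are no separate sign of cell type. The other listed epithelial markers, except Cdx1 and Cdx2, were at 1 TPM or more in every cell of both groups. Cdx1 reached 1 TPM in 4 of 9 Mki67+ and 4 of 6 Mki67- cells, and Cdx2 in 2 of 9 and 0 of 6. Of 12 immune, 6 endothelial and 7 fibroblast markers, at most 2, 1 and 1 were at 1 TPM or more in any of these cells. The summed immune level was 0 to 46.8 TPM in Mki67+ and 0 to 76.5 TPM in Mki67- cells. The defining Cd3e, Lyz2, Tyrobp, Col1a1, Col3a1 and Kdr were at 0 in all 15. The number of genes at 1 TPM or more was 5807 to 7051 in Mki67+ cells (median 6303) and 5525 to 6711 in Mki67- cells (median 6446), so the groups overlapped in it. The predicted gene Gm10925 took 5.75% to 24.7% and 7.12% to 26.3% of TPM, and ribosomal protein entries took 25.8% to 36.7% and 27.7% to 35.4%. All 3 Mki67- cells among i7 indexes N704 to N707 carry N704, which no Mki67+ cell does, and the part of an index in a result was not tested beyond the values given per index group.

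Among the S-phase genes, the helicase subunits differed little between both groups beside their distance from the cells outside the cycle. Differences are those of mean log2(TPM + 1), Mki67+ minus Mki67- cells, unless another pair is named. Mcm2, a helicase subunit, was 8.18 to 249 TPM (median 52) in Mki67+ cells and 0.92 to 103 TPM (median 43) in Mki67- cells, a difference of 0.64. Mcm3 differed by 0.54, Mcm4 by 0.43, Mcm6 by 0.49 and Mcm7 by 0.80. Each of these 5 subunits overlapped between the groups. Against the 30 cells outside the cycle, whose medians for them were 0 to 34.1 TPM, the Mki67- cells stood 2.27 (Mcm7) to 3.44 (Mcm2) higher on the same scale.

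The S-phase genes Dut, Tyms, Pole, Dnmt1 and Chaf1b, picked after their values were seen, also stood higher in Mki67- cells than outside. Others lay above them in their difference between the replicating groups: Nasp had 1.87, Umps 1.78, Shmt1 1.70 and Mthfd1 1.51. The split into this set and the next is thus a description without a sharp border. Dut, which removes dUTP from the nucleotide pool, was 31 to 64.8 TPM (median 44.7) in Mki67- cells, 0.46 to 218 TPM (median 114) in Mki67+ cells and at a median of 0 outside. It was 5.02 higher in Mki67- cells than outside and 0.57 higher again in Mki67+ cells. Tyms (thymidylate synthase), Pole (the leading-strand polymerase), Dnmt1 (maintenance DNA methylation) and Chaf1b (chromatin assembly behind the fork) were 3.43, 2.96, 2.57 and 3.06 higher in Mki67- cells than outside. Their differences between Mki67+ and Mki67- cells were 1.41, 0.10, 0.38 and 0.44. That of Tyms was 3.32 in index group N704 to N707 and -0.22 in N708 to N710. Cdc6, the helicase loader, was spread widely within both groups, 0 to 82.2 TPM and 0 to 104 TPM, and Gins4, of the active helicase, had a difference of -0.53.

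A second set of S-phase genes, put together after their values were seen, had larger differences between the replicating groups. Fen1, the nuclease that trims Okazaki fragments, was 4.63 to 173 TPM (median 74.0) in the 9 Mki67+ cells and at 0 in 5 of 6 Mki67- cells, with 106 TPM in the sixth, a difference of 4.78. Rpa2, of the single-strand binding protein RPA, was 17.5 to 152 TPM (median 60.5) against 0 to 48 TPM (median 0), a difference of 4.43. Tk1, thymidine kinase, was 15.1 to 196 TPM (median 89.8) against 0 to 39.6 TPM (median 0.11), a difference of 4.52. Both groups overlapped in these 3 genes because of 1 or 2 Mki67- cells each. Rrm1 and Rrm2, the subunits of ribonucleotide reductase, had differences of 3.18 and 3.0, and Rrm1 was at 21.9 TPM or more in every Mki67+ cell while Rrm2 was below 1 TPM in 3 of 9. Each of them was at 1 TPM or more in 3 of 6 Mki67- cells. Prim1 (primase), Rfc5 (clamp loader), Cad (pyrimidine synthesis) and Uhrf1 (a reader of hemimethylated DNA) had differences of 2.73, 2.68, 2.52 and 2.97. Pcna, the sliding clamp, had a smaller difference of 1.22, with 78.4 to 987 TPM (median 403) against 44 to 311 TPM (median 159). That is below the difference of Tyms in the first set.

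Gmnn, which encodes geminin and blocks a second loading of helicases, was 15.2 to 158 TPM (median 61.8) in Mki67+ and 0 to 8.08 TPM (median 2.97) in Mki67- cells. The groups did not overlap, and the difference was 4.25. Its target Cdt1 overlapped, at 0 to 226 TPM (median 102) against 0 to 179 TPM (median 48.6). Pclaf, a partner of PCNA, was 0.81 to 131 TPM (median 37.1) against 0 to 0.18 TPM, also without overlap and with a difference of 4.46. Rad51ap1, of homologous recombination, was 1.39 to 23.8 TPM against 0 to 1.34 TPM, a gap of little width.

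**Figure D1:**
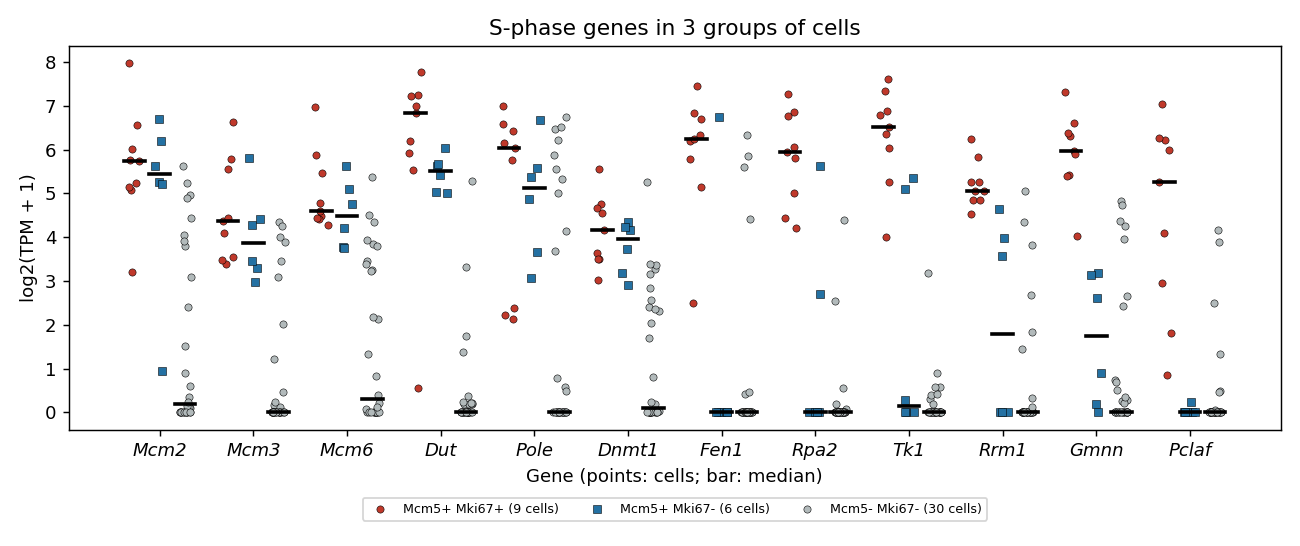
Levels of 12 S-phase genes as log2(TPM + 1) in the 9 Mki67+ cells (red circles), the 6 Mki67- cells (blue squares) and the 30 cells outside the cycle (grey circles); points are cells and bars medians. Mcm2 to Dnmt1 lie high in both replicating groups, while for Fen1 to Pclaf the bars of the Mki67- cells lie at or near those of the cells outside, except for Rrm1 and Gmnn, whose bars lie between.

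Of 9166 genes detected (1 TPM or more) in 10 or more of the 50 cells, 279 (3.04%) were higher in Mki67+ than in Mki67- cells by 2 or more on the log2 scale, 4-fold in TPM + 1, and 188 (2.05%) were lower by as much. The median difference of all these genes was -0.01. With Mcm5 and Mki67 left out, 64 of 278 higher genes reached the 10 cells only by counting the Mki67+ cells. Of 188 lower genes, 9 reached them only by counting the Mki67- cells. The filter itself thus favors the higher count, and nothing is read from 279 against 188. Groups did not overlap for 9 genes (0.0982%) with higher and 1 gene (0.0109%) with lower values in Mki67+ cells. The higher ones were Mki67 itself, Gmnn, Pclaf, Rad51ap1, Cenpw, Nudc, Med30, Cnnm4 and Greb1l, and the lower one was Zc3h12a. Some of the higher ones, such as Mki67 and Pclaf, reached the 10 cells only by counting the Mki67+ cells. Against the cells outside the cycle, Mki67- cells had 332 genes (3.62%) higher and 66 (0.720%) lower by the same size, with a median of 0.22. The cells outside had 1316 to 6484 genes at 1 TPM or more (median 5738), against a median of 6446 in Mki67- cells. Among them, N708-N503 had 1316 genes and Gm10925 at 85.1% of TPM. In N704-N517, Paneth and deep crypt secretory markers summed to 291433 TPM. The part of these cells and of fewer genes seen in differences from the cells outside was not tested.

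By list, with Mcm5 and Mki67 left out and genes below the filter kept, origin licensing and firing had a median difference of 0.78. Of its members, 1 of 19 was past the size, beside 3.04% of all genes tested. In Mki67- cells over the cells outside, 8 of 19 were past it, beside 3.62% of all genes. The Mki67- cells were themselves chosen for Mcm5. How many of the 8 reached the filter only by counting cells chosen for Mcm5 was not worked out, so nothing is read from that count. Between the replicating groups the replication fork list had 0.93 and 4 of 28, nucleotide supply 1.06 and 4 of 18, and chromatin assembly 0.84 and 1 of 13. Of these members past the size, 3 of 4, 3 of 4 and 1 of 1 passed the filter only by counting the Mki67+ cells. For them the filter itself favors higher values in Mki67+ cells, and nothing is read from their count. The 1 licensing member past the size did not depend on this. In Mki67- cells over the cells outside, licensing had a median of 0.75, slightly below its difference between the replicating groups, and the other 3 lists had 1.06, 1.36 and 1.21, each above theirs. Members past the size were fewer than members above 0, which numbered 18 of 19, 25 of 28, 18 of 18 and 11 of 13.

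The mitotic lists had larger medians between the replicating groups. Mitotic kinases and entry genes had a median of 2.19 with 11 of 19 past the size, kinetochore and checkpoint genes 1.93 with 14 of 38, mitotic exit and cytokinesis 1.96 with 7 of 18, chromosome condensation and cohesion 1.75 with 5 of 16, and spindle and motors 1.28 with 5 of 25. In Mki67- cells over the cells outside the same 5 lists had medians of 0.70, 0.24, 0.03, 0.18 and 0.02. That of the kinase list was near the 0.75 of licensing, and the other 4 were lower. No member of these lists was lower by the size in Mki67+ cells, with or without the filter on low values. Counts past the size are limited to the genes past that filter, which 14, 24, 11 (exit), 12 (condensation) and 8 (spindle) members passed. Of the members past the size, 7 of 11, 11 of 14, 3 of 7, 3 of 5 and 4 of 5 reached the 10 cells of the filter only by counting the Mki67+ cells, so for these the filter itself favors higher values in Mki67+ cells and nothing is read from their count. Within index groups N704 to N707 (3 cells a group) and N708 to N710 (6 and 3 cells) the kinase list had medians of 2.55 and 2.34, the kinetochore list 2.15 and 1.79, and the spindle list 1.72 and 1.08.

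**Figure D2:**
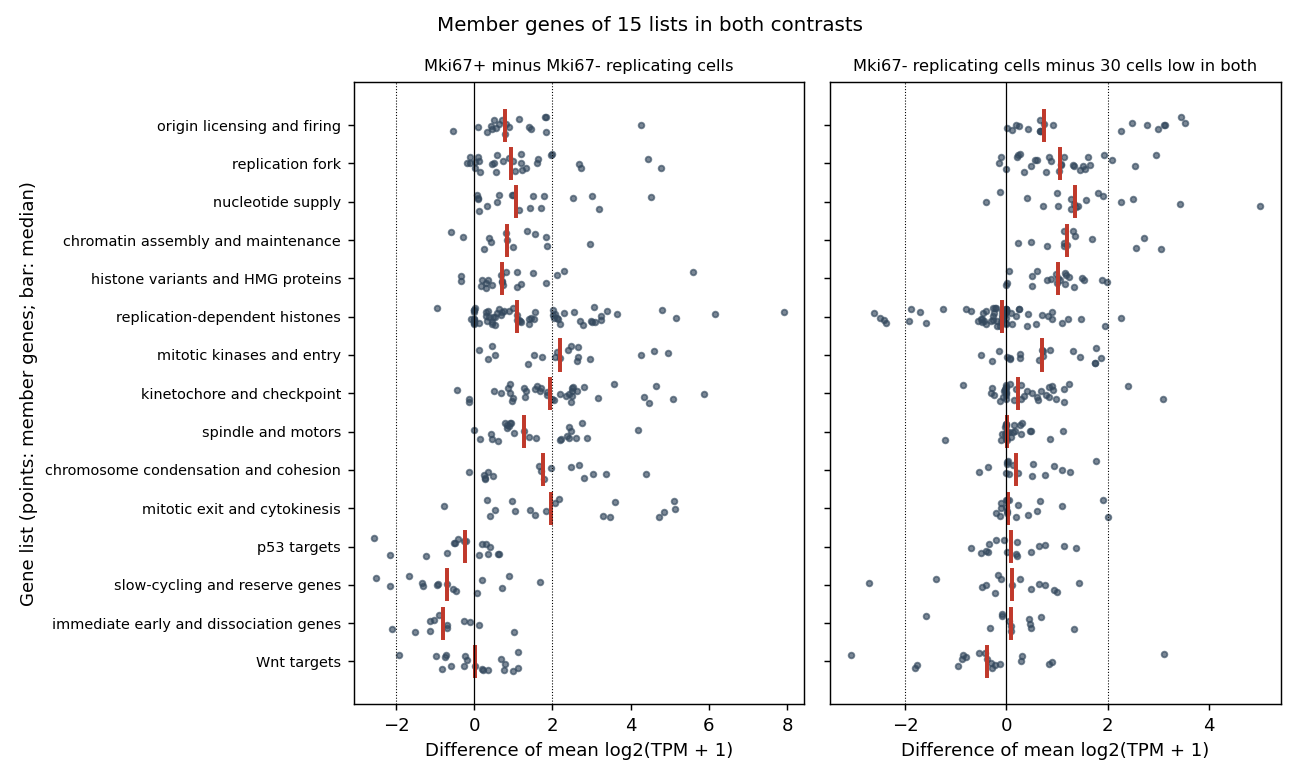
Differences of mean log2(TPM + 1) of the member genes of 15 lists (points, Mcm5 and Mki67 left out; red bars are medians; dotted lines mark 2 in either direction). The left panel sets 9 Mki67+ against 6 Mki67- cells, where the 5 mitotic lists have medians of 1.28 to 2.19, and the right panel sets the 6 Mki67- cells against 30 cells outside the cycle, where the same lists have medians of 0.02 to 0.70 and the licensing, fork, nucleotide and chromatin assembly lists 0.75 to 1.36.

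Of the entry genes, Cdk1, the mitotic kinase, was 15.6 to 199 TPM (median 89.9) in Mki67+ cells and 0 to 16.2 TPM (median 6.78) in Mki67- cells, a difference of 4.27. Its partner Ccnb1 (cyclin B1) was 0 to 369 TPM (median 43.1) against 0 to 0.145 TPM, a difference of 4.97. Ccna2 (cyclin A2) was 0 to 250 TPM (median 145) against 0 to 36.5 TPM (median 0), a difference of 4.60. All 3 overlapped: the lowest Mki67+ cells for both cyclins were at 0. Plk1 and Aurka, kinases of entry and the spindle poles, had differences of 2.49 and 2.12 and were seen at 1 TPM or more in 5 and 3 of 6 Mki67- cells. Cks1b, a Cdk subunit, was at a median of 402 against 125 TPM. Cdc25c, the phosphatase that activates Cdk1, was at 15.2 to 49.8 TPM in Mki67+, 16.4 to 37.1 TPM in Mki67- cells and at a median of 19.4 TPM outside, a difference of 0.13.

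Of the kinetochore and checkpoint genes, Birc5 (survivin) and Aurkb, both of the chromosomal passenger complex, had differences of 5.87 and 5.07. Birc5 was 0 to 432 TPM (median 214) against 0 to 30.8 TPM (median 0.095). Aurkb was 9.05 to 182 TPM (median 76.0) against 0.18 TPM or less in 5 Mki67- cells and 13.6 TPM in the sixth. Cenpw, of the inner kinetochore, was 4.73 to 89.2 TPM (median 52.6) against 0 to 3.50 TPM and did not overlap. Spc24 and Spc25, of the NDC80 complex, had differences of 4.65 and 4.46. Against the list, Cenph, another inner kinetochore gene, had a difference of -0.45 and was 3.09 higher in Mki67- cells than outside. Zwint had -0.15 and a median of 7.88 TPM also in the cells outside.

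Of the spindle, condensation and exit genes, Kif20a, a motor of cytokinesis, was 0 to 75.4 TPM (median 34.5) against 0 to 0.24 TPM, a difference of 4.19. Cdca5 (sororin, which guards cohesion) had 4.38, Top2a (topoisomerase II alpha) 3.36 and Smc4 (a condensin subunit) 3.02. Pbk, Cdca3, Fbxo5 and Ube2c had differences of 5.13, 5.11, 4.86 and 4.73. Fbxo5 (Emi1) inhibits the anaphase-promoting complex, and Ube2c passes ubiquitin for it. Ube2c was 0.55 to 1432 TPM (median 565) against 0 to 95.2 TPM (median 9.53). Cdc20, the activator of that complex, was at 38.2 TPM or more in 5 of 9 Mki67+ cells and at 0.54 TPM or less in the other 4, against 19.5 TPM in 1 Mki67- cell. In the cells outside the cycle, Cdc20 was at 1 TPM or more in 5 of 30 and reached 114 TPM. Kif20a was at 36.2 TPM in 1 of the cells outside, N704-N504. Members with small or opposite differences included Pttg1 (securin), at 0.27 with medians of 81.2 and 66.7 TPM, Kif11, a spindle motor, at 0.60, and Lbr, of the nuclear envelope, at -0.77. Ckap2l, which did not pass the filter on low values, was 0.06 to 18.3 TPM against 0 in all 6.

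Among transcription factors of the mitotic programme, Mybl2 (B-Myb) and Foxm1 had differences of 2.29 and 1.92 with medians of 8.55 and 13.2 TPM in Mki67+ cells, and Lin37 of the MuvB core had -1.37. Of the E2F genes, E2f8 had 1.91, E2f1 was at 1 TPM or more in 3 of 9 Mki67+ and 0 of 6 Mki67- cells, and E2f2 was at medians of 8.30 and 6.22 TPM.

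**Figure D3:**
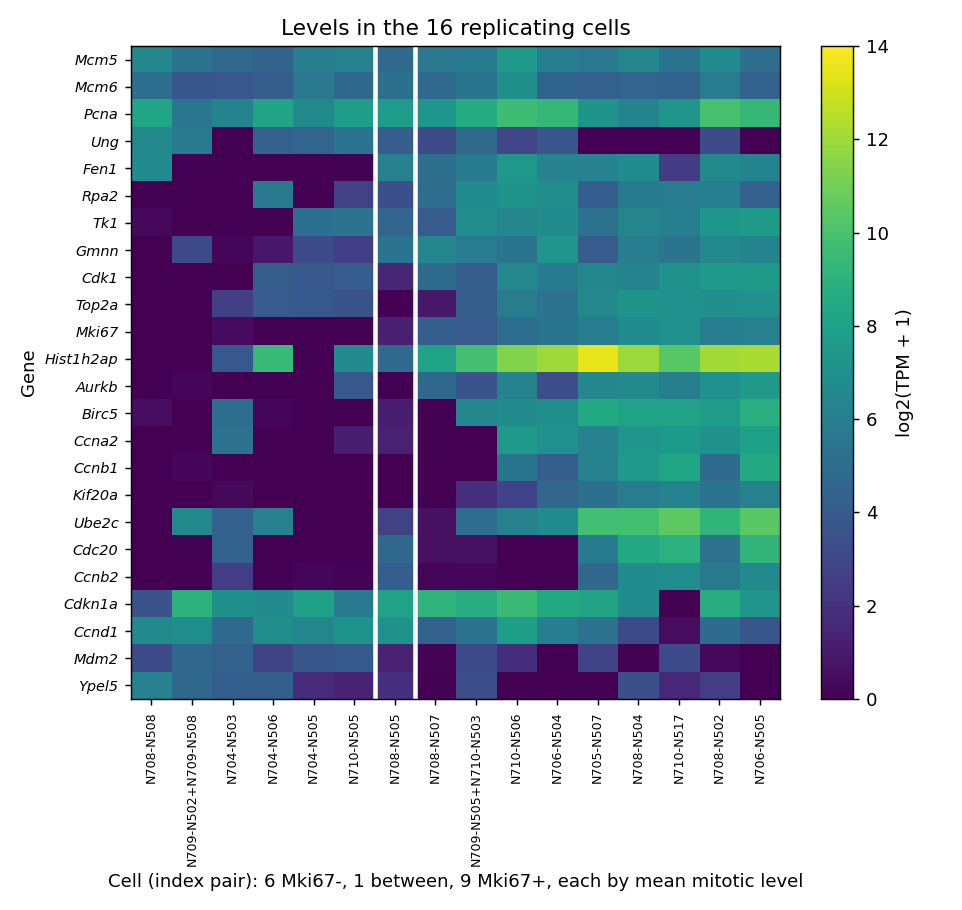
Levels of 24 genes as log2(TPM + 1) (colour) in the 16 replicating cells (columns, named by index pair); white lines separate the 6 Mki67- cells, the cell between and the 9 Mki67+ cells, each ordered by its mean mitotic level. Ccnb1 is dark in the first 2 Mki67+ cells and in all Mki67- cells, and Cdk1 is seen in 3 Mki67- cells.

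Cells within each group differed from one another. Of 116 mitotic genes, Mki67- cells had 22 to 46 at 1 TPM or more and Mki67+ cells 37 to 104, with medians of 35.5 and 88 against 21.5 in the cells outside. Of 65 replication genes they had 21 to 52 and 46 to 58, with medians of 39.5 and 50 against 20 outside. The Mki67+ cells were thus more alike in the number of replication genes than in the number of mitotic genes. Mean mitotic levels on the log2 scale were 0.85 to 1.38 in Mki67- and 1.09 to 4.45 in Mki67+ cells, and mean replication levels were 1.47 to 3.48 and 3.09 to 4.64.

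In 3 of the Mki67- cells (N704-N505, N704-N506 and N710-N505), Cdk1 was at 13.6, 16.2 and 15.8 TPM and Top2a at 13.3, 14.95 and 10.3 TPM, while Mki67 and Ccnb1 were at 0. In the other 3, Cdk1 was at 0 and Top2a was at 0, 0.03 and 5.24 TPM. The cells N704-N503 and N709-N502+N709-N508 of these had mean replication levels of 1.92 and 1.47, within the range of the cells outside the cycle, 0.25 to 1.93. The cells of this group thus held Mcm5 with between 21 and 52 of the other replication genes.

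In 2 Mki67+ cells, N708-N507 and N709-N505+N710-N503, Ccnb1 and Ccna2 were at 0, with Mki67 at 16.9 and 15.3 TPM, the lowest of the 9, and Cdk1 at 30.3 and 15.6 TPM. Their mean mitotic levels, 1.09 and 1.99, were the lowest of the group, and that of N708-N507 lay within the range of the Mki67- cells. Both had Gmnn (82.6 and 58.2 TPM), Fen1 (34.3 and 54.2 TPM) and Tk1 (15.1 and 117 TPM). The other 7 had Ccnb1 at 16.4 to 369 TPM and Ccna2 at 72.0 to 250 TPM. Cdc20 was above 300 TPM in 3 cells, N708-N504, N710-N517 and N706-N505, at 353, 486 and 569 TPM. These 3 also had the highest Ccnb1, at 182, 308 and 369 TPM, and the lowest Cdkn1a of the group, at 111, 0 and 154 TPM against 293 to 747 TPM in the other 6. The 3 were picked after their values were seen. The cell between the groups, N708-N505, had Gmnn at 39.2 and Fen1 at 70.02 TPM with Cdk1 at 1.89 and Top2a at 0.

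**Figure D4:**
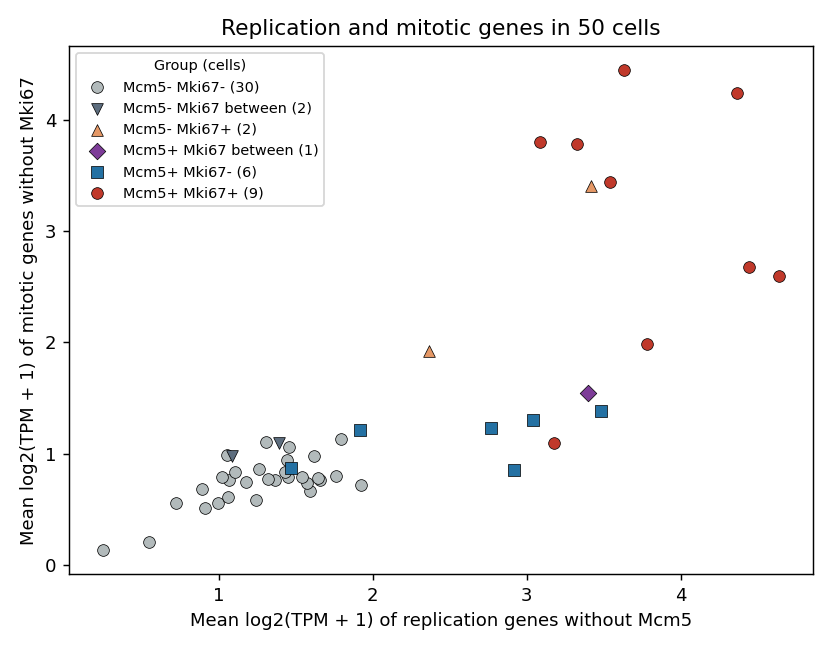
Mean log2(TPM + 1) of 116 mitotic genes without Mki67 (vertical) against that of 65 replication genes without Mcm5 (horizontal) in the 50 cells; colours and shapes give the 6 groups. The 30 cells outside the cycle lie at the lower left, 4 of the 6 Mki67- cells lie to their right at mitotic means of 0.85 to 1.38, and 8 of the 9 Mki67+ cells lie above 1.9 on the vertical axis.

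Histone genes had some of the largest differences. Replication-dependent histones, which package new DNA, had a median difference of 1.08 with 14 of 63 past the size, and their summed level was 887 to 31980 TPM (median 8094) in Mki67+ and 226 to 1888 TPM (median 1257) in Mki67- cells. Cells outside the cycle reached 16060 TPM with a median of 2025, so the sum was not low in all of them. Of the 14 histone genes past the size, 9 had a lower mean in the Mki67- cells than outside, and 7 were higher by the size in Mki67+ cells than outside. Over all genes higher by the size, with Mcm5 and Mki67 left out, these counts were 173 and 154 of 278. Those of the histones were thus near the shares of all such genes. Of the 14, 4 reached the 10 cells of the filter only by counting the Mki67+ cells. Hist1h1c, Hist1h2bl and Hist1h2ba, of linker histone H1 and core histone H2B, had differences of -2.62, -2.50 and -2.43 between Mki67- cells and the cells outside. Mean log2(TPM + 1) of Hist1h2ba was 5.43 in Mki67+, 3.13 in Mki67- and 5.56 in outside cells. Hist1h2ap was 271 to 11630 TPM (median 3737) against 0 to 679 TPM (median 6.86) and Hist1h4i 111 to 2657 TPM (median 600) against 0 to 221 TPM (median 2.75), differences of 7.91 and 6.15. Near-identical copies of these genes share reads, so values of single histone genes are uncertain. The list's median was 2.09 in N704 to N707 and 0.61 in N708 to N710, and 0 with medians over cells in place of means. H2afx, the variant phosphorylated at DNA breaks, was 13 to 1677 TPM (median 521) against 0 to 110 TPM (median 10.2), a difference of 5.58. Hmgb2, Anp32e and Hmgn2 of the chromatin proteins had 2.29, 2.10 and 1.84. H2afz was in both groups, at medians of 5418 and 2466 TPM against 1179 TPM outside.

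DNA repair genes had a median difference of 0.61, with 2 of 24 higher and 1 lower by the size. Over all genes tested these shares were 3.04% and 2.05%. Rad51ap1 (2.33) was among the higher ones. Of the 2 higher ones, 1 passed the filter only by counting the Mki67+ cells, so nothing is read from their count. The lower one was Ung, the glycosylase that removes uracil from DNA: it was 0 to 27.8 TPM (median 6.53) in Mki67+ and 0 to 102 TPM (median 30.5) in Mki67- cells, a difference of -2.46. It was 3.94 higher in Mki67- cells than in the cells outside, and the differences in the index groups were -1.70 and -3.59. Ung was at 0 in the 3 Mki67+ cells with Cdc20 above 300 TPM, and in N705-N507.

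Of the G1 regulators, Ccnd1 (cyclin D1) was 0.37 to 231 TPM (median 29.2) in Mki67+ cells and 26.1 to 141 TPM (median 110) in Mki67- cells against a median of 18.1 TPM outside. The difference was -1.92, and the groups overlapped. Cdk4 differed by 0.29 and Cdk2 by 0.14. Ccne1 (cyclin E1) was seen in 5 of 9 and 2 of 6 cells. Of the CDK inhibitors, Cdkn1a (p21) was at medians of 360 and 119 TPM, Cdkn1b (p27) at 8.08 and 23.7 TPM, and Cdkn1c (p57) was seen in 3 of 9 and 1 of 6 cells. The difference of Cdkn1b was -1.31, with -3.33 in N704 to N707 and 0.07 in N708 to N710.

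The p53 targets had a median difference of -0.23 with 2 of 16 lower by the size, beside 2.05% of all genes tested. Mdm2, the ligase that degrades p53, was 0 to 7.94 TPM (median 0.22) in Mki67+ and 6.28 to 25.8 TPM (median 13.4) in Mki67- cells, a difference of -2.55. Btg2, an antiproliferative gene, was 0 to 2080 TPM (median 783) against 538 to 2224 TPM (median 1583), a difference of -2.16. It was -4.78 in N704 to N707 and -0.95 in N708 to N710, and it is named after its values were seen. Ccng1 and Bax, also p53 targets, had differences of 0.64 and 0.60 and medians of 13.7 against 11.6 and 18.2 against 18.3 TPM.

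Slow-cycling and reserve genes had a median difference of -0.68 with 2 of 15 lower by the size, Ypel5 and Btg2, beside 2.05% of all genes tested. Btg2 also counts among the p53 targets above. Ypel5 was 0 to 9.80 TPM (median 0) against 1.57 to 71.7 TPM (median 17.6) and 12.0 TPM outside, a difference of -2.51. The median of this list was -1.01 in N704 to N707 and 0.06 in N708 to N710. Prox1 was low in both replicating groups, at medians of 2.92 and 5.63 TPM against 21.5 TPM outside. It was 18.7 to 49.2 TPM in the cells with Mcm5 below 10 TPM and Mki67 at 1 TPM or more, so low Prox1 did not extend to them. Lgr5 was at medians of 2.12, 1.67 and 2.5 TPM in Mki67+, Mki67- and outside cells. Crypt stem genes and Wnt targets had median differences of 0.10 and 0.01 with 0 members past the size in either direction, of 14 and 19. Ccnd1 had the lowest difference of the Wnt targets and Tcf7 (1.13) the highest. Between Mki67- cells and the cells outside, the Wnt target Sp5 had a difference of -3.08 and Ccnd1 one of 3.12.

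Markers of epithelium in general and of the colon's differentiated cells differed in part between both replicating groups. The epithelial list includes Epcam and Cd24a of the sort and is no measure of differentiation. The summed level of 12 epithelial markers was 4867 to 18827 TPM (median 9009) in Mki67+ and 12120 to 19826 TPM (median 13146) in Mki67- cells against a median of 14454 TPM outside. Their median difference was -0.50, with -1.07 in N704 to N707 and about 0 in N708 to N710, and 0 of 12 were past the size. The 9 goblet markers summed to 0.09 to 289 TPM (median 22.5) and 0.095 to 267 TPM (median 99.7), while the defining Muc2, Clca1, Zg16 and Atoh1 were at 0 in all 15 cells. Most of this sum was Agr2, a folding factor of secretory cells, at medians of 15.8 and 95 TPM.

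The 9 tuft markers summed to 9.18 to 106 TPM (median 39) and 10.4 to 256 TPM (median 104), with the defining Trpm5 and Il25 at 0 in all 15 cells. Of them Sh2d6 was lower by the size in Mki67+ cells, at 0 to 29.4 TPM (median 0) against 0 to 192 TPM (median 28.3), a difference of -2.87. The 11 colonocyte markers summed to 23.6 to 390 TPM (median 96.3) and 25.7 to 129 TPM (median 70). Of them Guca2b, which encodes the peptide uroguanylin, was higher by the size, at 0 to 106 TPM (median 25.1) against 0 to 5.96 TPM (median 0), a difference of 2.92, while Car4, Aqp8, Krt20, Alpi and Fabp2 were at 0. Sh2d6 and Guca2b reached the 10 cells of the filter only by counting the group where each was higher. Nothing is read from either being past the size. Paneth and deep crypt secretory markers summed to medians of 348 and 435 TPM in Mki67+ and Mki67- cells. Enteroendocrine markers summed to medians of 48.55 and 45.4 TPM. Sums overlapped between the groups in all these lists, and the part of such cell states in the other differences was not tested.

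Immediate early genes, which also respond to dissociation, had a median difference of -0.80 with 1 of 12 past the size, Atf3 (-2.11). Of all genes tested, 2.05% were lower by the size. Their summed level was 2916 to 16741 TPM (median 8085) in Mki67+ and 9482 to 16665 TPM (median 11009) in Mki67- cells against a median of 16699 TPM outside. The list's median was -1.35 in N704 to N707 and -0.11 in N708 to N710. Its part in the genes at lower levels in Mki67+ cells was not tested.

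**Figure D5:**
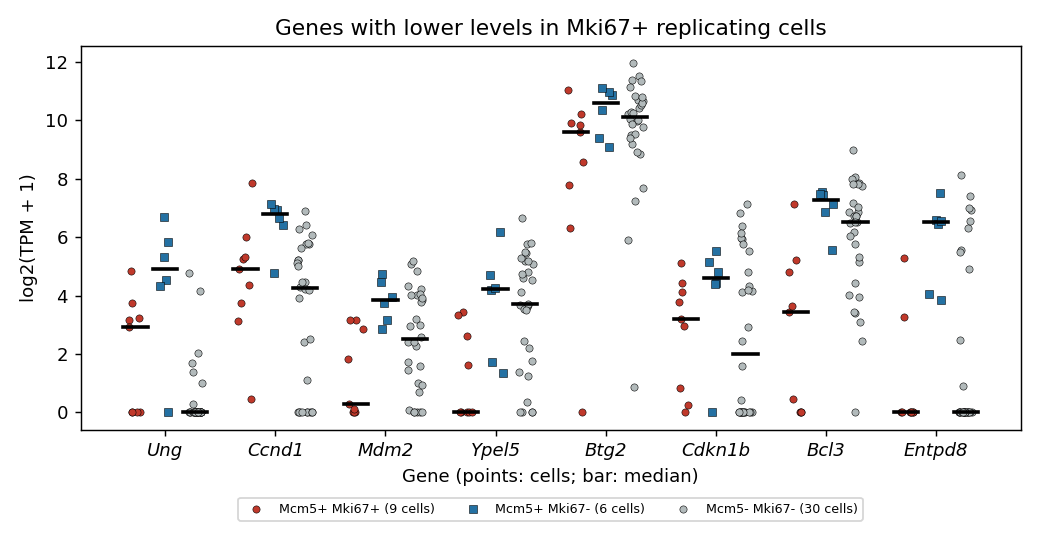
Levels of 8 genes with lower means in Mki67+ cells as log2(TPM + 1), in the 9 Mki67+ cells (red circles), the 6 Mki67- cells (blue squares) and the 30 cells outside the cycle (grey circles); points are cells and bars medians. Points of the Mki67+ and Mki67- cells overlap for each of the 8 genes, and the bar of the Mki67- cells lies above the bars of both other groups.

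Outside the lists, the genes with the most positive differences and the same sign in both index groups were Spsb2 (4.60), Pclaf (4.46), Dnph1 (4.43), Rnf26 (4.39) and Dph2 (3.93). Spsb2, a substrate adaptor of a ubiquitin ligase, was 20.1 to 145 TPM (median 108) against 0 to 160 TPM (median 0.20), and 7.52 TPM outside. Dnph1, a hydrolase of deoxynucleotide monophosphates, was 0 to 271 TPM (median 67.3) against 76.4 TPM in 1 Mki67- cell and 0 at the median. Nmral1, Rsc1a1, Kti12, Adprhl2, Dxo, Polr2i (of RNA polymerase II), Triap1, D030056L22Rik, Gemin6 (of the SMN complex) and Zfp503 had 3.38 to 3.91. Nudc, a partner of dynein in cell division, was 58.2 to 145 TPM against 19.2 to 58.1 TPM, and it, like Med30 (a Mediator subunit) at 0.88 to 13.3 against 0 to 0.21 TPM, was named for its groups not overlapping.

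The most negative differences were those of Arl14 (-4.96), Entpd8 (-4.88), Sowahb (-4.72), Bcl3 (-4.26) and Rhoc (-4.08). Entpd8, an ectonucleotidase, was 0 to 38.4 TPM (median 0) in Mki67+ and 13.5 to 180 TPM (median 89.9) in Mki67- cells. Bcl3, a partner of NF-kappaB, was 0 to 139 TPM (median 9.92) against 46 to 185 TPM (median 156) and a median of 90.8 TPM outside. Tnfrsf12a, the TWEAK receptor, was 0 to 381 TPM (median 151) against 219 to 1279 TPM (median 451) and 659 TPM outside. Myl9, Trf, E430018J23Rik, D930048N14Rik, Surf2, Ankrd9, Pnrc1 and Tmem86a had -3.93 to -3.40. Zc3h12a (Regnase-1, an RNase of inflammatory transcripts) was 0 to 2.83 TPM against 3.48 to 9.35 TPM without overlap, and at a median of 1.36 TPM outside. Of these genes, Arl14 and D930048N14Rik were 3.27 and 4.23 higher in Mki67- cells than outside, while Bcl3 and Tnfrsf12a were 1.09 and 0.58 higher. D930048N14Rik reached the 10 cells of the filter only by counting the Mki67- cells, so nothing is read from its rank.

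Growth genes differed less. Ribosome biogenesis genes had a median difference of 0.50 between Mki67+ and Mki67- cells with 0 of 20 past the size, and of 1.03 between Mki67- cells and the cells outside. Oxidative phosphorylation had 0.17 with 0 of 17, against 0.68. Tubulins had 0.42 with 0 of 12, against 0.97, and Tuba1b was at medians of 3191, 1135 and 139 TPM in Mki67+, Mki67- and outside cells. Heat shock genes had 0.48 and glycolysis -0.05, with 0 of 11 and 0 of 12 past the size.

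Some values can hold reads of a neighbouring gene, because the sources used here do not say whether counting used strand. In the annotation Mki67 overlaps Gm45240, Fen1 overlaps Tmem258, Tk1 overlaps Afmid, Ccna2 overlaps Exosc9, Kif20a overlaps Cdc23, Spsb2 overlaps Tpi1, Pclaf overlaps Trip4, Entpd8 overlaps Noxa1 and Ccnd1 overlaps LTO1, each on the other strand. Cdc20 overlaps Elovl1, also on the other strand.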

How the data were processed

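Single cells were profiled by RNA-seq in 56 libraries (7 i7 by 8 i5 indexes) of 1 mouse. The authors deposited TPM for 24410 Ensembl gene IDs. The tools, per the submitters' processing notes, included RSEM 1.2.31, Bowtie2 2.2.9 and bcl2fastq 1.8.4, with the genome build GRCm38.p4. Neither the annotation nor strand is stated there. Depth cannot be had from TPM, and a value of 0 means only that the gene is listed at 0. GENCODE M21 names matched 24235 IDs.

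The 6 library pairs with Pearson's r above 0.9 of log2(TPM + 1), over the 8996 genes seen (1 TPM or more) in 20% of the libraries, were averaged (their r was 0.957 to 0.992, and the next pair's 0.782), which gave 50 cells, with 1 averaged pair in each group compared. Levels were compared as the difference of mean log2(TPM + 1), pseudocount 1 TPM, which understates the change of low genes, and called past the size at 2 among 9166 genes at 1 TPM or more in 10 cells. No test was made, because cells of 1 mouse are 1 sample. The method was tested on simulated data. The members, lists and tests were chosen with earlier results of these data known.

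The genes named were Mcm5, Mki67, Top2a, Ccnb1, Cdk1, Prox1, Lgr5 and Cdkn1a, the 3 members with the largest and the 1 with the smallest difference in each list, and the 15 highest and 15 lowest genes outside the lists with the same sign in i7 groups N704 to N707 and N708 to N710. Others, such as Dut, Rrm2, Plk1, Cdc20 and genes whose groups do not overlap, were named after their values were seen. Not all genes the rule gives are printed, and some are not reported here. Promoters were taken from RefSeq on GRCm38.p6. Alternatives were other thresholds, pseudocounts, size limits and filters, the 56 libraries as cells, medians, TPM without Gm10925 and ribosomal protein genes, index groups, leaving out each i5 index and, added after the data were seen, leaving out averaged pairs. Python 3.11.15, numpy 2.4.6, pandas 2.3.3 and matplotlib 3.10.9 were used.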

Additional observations from a re-analysis of the deposited data

Results flagged for a closer look

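In 28 groups of cell values, 2 cells stood apart by Dixon's criterion at 95%, which chance alone gives in about 1 in 20 groups. Both values belong to N709-N502+N709-N508, a Mki67- cell averaged from 2 libraries. Gm10925 took 26.3% of its TPM, against 7.12% to 12.6% in the other 5 Mki67- cells. Ccnb1 was 0.145 TPM there and 0 in the other 5, so it was at or near 0 in all 6.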

How the results depend on the processing

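No test was run, so the alternatives bear on sizes. The 7 lists with medians of 1 or more kept their direction or came to 0, and the cell counts stayed within 1.5 times. The same held for genes that the naming rule gave from the lists with differences of 2 or more. Genes named after their values were seen, such as Plk1 and Cdc20, were not followed through all alternatives. The genes named outside the lists were chosen for 1 sign in both index groups, so their direction there was fixed. Of the 21 lists with medians under 1, 9 turned under some alternative, such as slow-cycling genes, from -0.68 to 0.06 in N708 to N710, and MYC and partners, from 0.45 to -0.48 in N704 to N707. Of the genes tested, the 3.04% higher by the size became 8.60% and 0.436% with pseudocounts of 0.1 and 10 TPM, 6.72% with medians, 5.51% and 7.0% in index groups N704 to N707 and N708 to N710, 4.77% without i5 N505, and 12% and 0.775% with sizes of 1 and 3. The 2.05% lower by the size became 7.80%, 0.153%, 5.71%, 8.98%, 3.34% and 3.33% in the same order up to N505, 3.45% without i5 N508, 3.22% in TPM without Gm10925 and ribosomal protein genes, 3.25% without averaged pairs, and 11.9% and 0.349% with sizes of 1 and 3. With pseudocounts of 0.1 and 10 TPM the list medians were 3.31 and 0.92 for mitotic kinases, 3.73 and 0.74 for kinetochores, 3.63 and 0.74 for mitotic exit, 2.87 and 0.59 for condensation, 2.98 and 0.32 for the spindle, and 1.63 and 0.33 for the fork. Histones had 0 with medians and 2.09 in N704 to N707. The median of all genes was -0.19 and 0.16 in the 2 index groups. The cause of these shifts was not tested, beyond the fewer cells in each index group. No paired analysis was possible because the labels give 1 group. Of 1 mouse, 9 and 6 cells and TPM without depth, no spread between animals can be given, and a gene at 0 in a cell may have been missed there.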
